A study of Mus musculus with 461 samples.

Results

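The 61 day 3 cells of the title prefix b1, of 461 cells in the series, were chosen by their measured Sox2 level and divided into 34 Sox2-positive cells (TPM of 1 or more) and 27 Sox2-negative cells (TPM under 1). TPM is the relative abundance of a transcript within 1 cell, corrected for its length. All cells came from OG2 transgenic mouse embryonic fibroblasts of the mixed strain 129SVJ, C57B6 and CBA, and were taken on 6 days of a reprogramming course called 7F in the titles. The fibroblasts were kept in medium with 10% serum and the reprogramming cells in iCD1, a defined medium. The labels name neither the factors nor what the prefixes b1, b2 and b3 stand for, nor how many embryos or transductions gave the cells. Each cell was captured and its cDNA prepared on the Fluidigm C1 microfluidic system. Because Sox2 divided the cells, it is left out of the results apart from the description of the division itself.

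Sox2 is a high-mobility-group transcription factor that binds DNA together with Oct4 (Pou5f1) in pluripotent cells, and it is silent in embryonic fibroblasts. The published 7F cocktail contains neither Sox2 nor Oct4. It joins the pluripotency factors Nanog, Esrrb and Sall4 to Glis1, Jdp2, the histone demethylase Kdm2b and the kinase Map2k6. With that cocktail, Sox2 transcripts come from the cell's own gene, whereas vector and native transcripts of the 7 factors cannot be told apart in gene counts. Cells that leave the fibroblast state lose collagen and contractile transcripts and take up epithelial ones before the late pluripotency genes appear.

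The 34 positive cells had Sox2 values from 1.24 to 153 TPM, with a median of 19.02. Just inside the threshold lay cells at 1.24, 3.18 and 4 TPM, and just outside it lay cells at 0.54, 0.48 and 0.4 TPM. Of the 27 negative cells, 20 had no Sox2 count and 7 had 1 or 2 counts. Positive cells made up 55.7% of the set (exact 95% binomial interval 42.4 to 68.5). At day 0, 1 of 20 b1 cells and 3 of 54 b2 cells reached 1 TPM. In the other day 3 set, b2, 54 of 58 cells did (93.1%, 83.3 to 98.1). The day 3 sets of b1 and b2 thus differed widely in the share of Sox2-positive cells, and only b1 had cells in number on both sides.

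Depth was similar on both sides. A positive cell had at least 0.7798 M counts (M, mega), at the median 3.45 M and at most 5.866 M. A negative cell had at least 0.9765 M, at the median 2.962 M and at most 4.833 M. The median number of genes with a count was 9529.5 in positive and 10239 in negative cells. All 61 cells belong to 1 set, so no test between the sides was possible and none was made. Cells are not replicates, and the values below describe these cells. Counts were summed over the cells of a side and scaled by the side's total to CPM. A gene is called higher or lower where the log2 ratio of CPM + 1 was at least 1 in size, a 2-fold difference. The ratio also had to stay so after the gene's cell of highest CPM was left out on each side. In the sums, a smaller share of cells with a transcript and a lower level per cell cannot be told apart, so shares of cells are given beside them. Intervals cover counting error only.

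Of 10773 genes considered (5 CPM or more in the pooled cells and 1 TPM or more in at least 5 cells), 1082 were higher in Sox2-positive cells, 10.0% of the genes, and 885 were lower, 8.21%. The median log2 ratio over all genes considered was 0.02. These shares are the background against which the gene lists below are read.

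**Figure D1:**
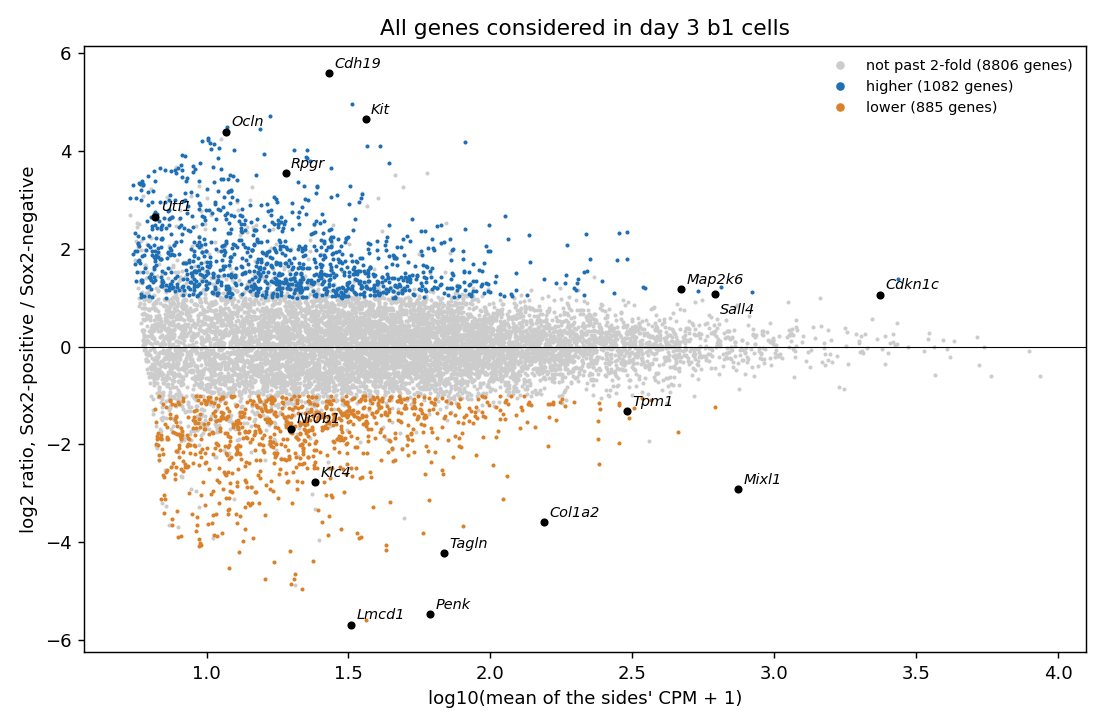
Log2 ratio between Sox2-positive and Sox2-negative day 3 b1 cells (vertical axis) against log10 of the mean CPM of the sides plus 1 (horizontal axis), with 1 point per gene considered. Blue points are the 1082 genes called higher and orange points the 885 called lower. Black points are named genes. The spread of the ratio narrows as the level rises, and Mixl1, Col1a2 and Tagln lie below most genes of their level.

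The cocktail factors lay toward the Sox2-positive side, 3 of them past the 2-fold limit. All 7 had a log2 ratio above 0, as did 5508 of the 10773 genes considered. Of the 7, 3 were called higher, beside 10.0% of all genes considered. Map2k6, a kinase upstream of p38, had 650 CPM in positive cells (exact Poisson 95% interval 645 to 654) and 285 CPM in negative cells (282 to 289), a log2 ratio of 1.18. Per cell it ran from 1.06 through a median of 519 to 4757 TPM in positive cells. In negative cells it ran from 0.27 through a median of 60.3 to 3483 TPM. The ranges overlapped, but 31 of 34 positive and 13 of 27 negative cells lay at 100 TPM or more. Sall4, a zinc finger factor of embryonic stem cells, had 834 CPM in positive and 398 CPM in negative cells, a log2 ratio of 1.07. Its lowest, median and highest values were 4.67, 181 and 1843 TPM in positive cells and 0.2, 81 and 606 TPM in negative cells. Glis1, a Gli-similar zinc finger factor, had 20 CPM against 8.21 CPM, a log2 ratio of 1.19, and was detected (1 TPM or more) in 29 of 34 positive and 19 of 27 negative cells.

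The remaining 4 factors were closer between the sides. Kdm2b, a histone demethylase, had a log2 ratio of 0.49 and the AP-1 repressor Jdp2 one of 0.38. The nuclear receptor Esrrb stood at 0.14 and the homeodomain factor Nanog at 0.12, with median levels per cell of 1412 against 1210 TPM for Esrrb and 491 against 442 TPM for Nanog. All 7 factors were detected together in 29 of 34 positive and 18 of 27 negative cells. In 21 of 34 positive and 11 of 27 negative cells, at least 4 of the 7 stood at or above the median of all 61 cells. The day 0 cells of b1 already held factor transcripts, with 591 CPM of Sall4, 464 CPM of Map2k6 and 1231 CPM of Esrrb. The calls of Sall4 and Map2k6 lay close to the 2-fold limit. With the 7 cells of 1 or 2 Sox2 counts moved to the positive side, their log2 ratios were 0.81 and 0.71. The Sall4 call held under 9 of 13 alternatives tried and the Map2k6 call under 10. Some of the 13 could not remove a call, here or for the genes below. Keeping the highest cell or dropping the filter on low values only relaxes the rule. A higher minimum level leaves the call of any gene above it unchanged. Sall4 stood at 0.82 as a mean of CPM over cells. The small ratios of Nanog and Esrrb did not keep their sign. Nanog stood at -0.01 as a mean of TPM, and Esrrb at -0.05 with the 7 cells moved.

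**Figure D2:**
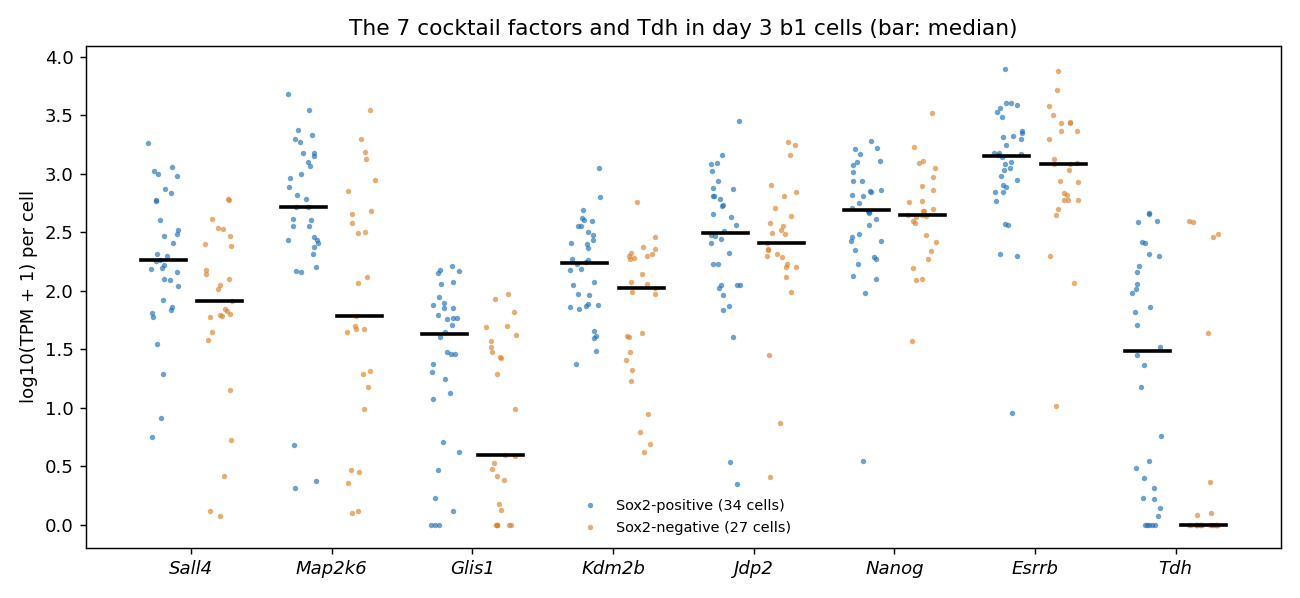
Level of the 7 cocktail factors and of Tdh in each of the 34 Sox2-positive (blue) and 27 Sox2-negative (orange) day 3 b1 cells, as log10(TPM + 1) on the vertical axis. Black bars are medians. The median of Map2k6 is 519 TPM in positive and 60.3 TPM in negative cells, that of Tdh 29.8 and 0 TPM, while Nanog and Esrrb have like medians.

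Among native pluripotency genes the sides differed in few members, and not in 1 direction. Of 25 genes on the list, 11 were considered, 1 was called higher and 2 lower, and the median log2 ratio was 0.57. Over all genes considered, 10.0% were higher and 8.21% lower. Tdh, the threonine dehydrogenase on which mouse embryonic stem cells rely for threonine breakdown, differed most in its share of cells. It was detected in 25 of 34 positive cells (73.5%, exact interval 55.6 to 87.1) and in 6 of 27 negative cells (22.2%, 8.62 to 42.3). With every cell thinned to 300000 counts, 67.6% of positive and 18.5% of negative cells had a Tdh count. Its values ran from 0 through a median of 29.8 to 457 TPM in positive cells and from 0 through a median of 0 to 391 TPM in negative cells. The 4 negative cells at 100 TPM or more reached levels like those of the positive cells, and the summed level, 132 CPM (130 to 134) against 70.2 CPM (68.3 to 72), gave a log2 ratio of 0.90, short of the 2-fold limit. Tdh stood at 0.0509 CPM in b1 cells of day 0.

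Utf1, a chromatin-bound factor of pluripotent cells, was called higher at 10.4 CPM against 0.811 CPM, a log2 ratio of 2.66, though it was detected in only 6 of 34 and 4 of 27 cells. Nr0b1 (Dax1), an orphan nuclear receptor, was called lower at 8.4 CPM against 29.2 CPM (log2 ratio -1.68). Tfcp2l1, a factor of naive pluripotent cells, was called lower at 12.2 CPM against 33.4 CPM (-1.39). These calls rest on few cells. Nr0b1 was detected in 9 positive and 6 negative cells and Tfcp2l1 in 7 and 7, and 1 cell held 70.8% of the Tfcp2l1 counts of the negative side. Klf4 (48.3 against 25.7 CPM, log2 ratio 0.88) and Tbx3 (128 against 81.2 CPM, 0.65) stood below the 2-fold limit. The late genes were detected in few cells on both sides. Pou5f1 was detected in 5 of 34 positive and 1 of 27 negative cells, Dppa5a in 3 and 1, and Zfp42 (Rex1) in 1 and 2. Their summed levels were all under 1 CPM and rested on these few cells, so no direction is read from them.

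Epithelial transcripts lay toward the positive side on summed counts. Of 25 genes on the list, 9 were considered, 4 of them were called higher and 0 lower, and the median log2 ratio was 1.13. Over all genes considered, 10.0% were higher. Krt19, a keratin of simple epithelia, had 52.5 CPM in positive and 23.5 CPM in negative cells (log2 ratio 1.13) and was detected in 21 of 34 and 9 of 27 cells. Ocln (occludin), a tight junction protein, had 21.4 CPM against 0.0628 CPM and was detected in 7 of 34 cells and 1 of 27. Cldn4, a claudin of the same junctions, had 33.6 against 7.96 CPM (1.95), but in 6 cells on each side. Esrp2, a splicing regulator of epithelial cells, had 18.4 against 7.26 CPM (1.23). Cdh1 (E-cadherin) was detected in 12 of 34 and 5 of 27 cells at 50 against 28.5 CPM (0.79). The early marker Epcam was found in 2 cells of each side. Dsp (121 against 119 CPM, 0.02) and Spint2 (58.8 against 49.4 CPM, 0.25) were at like levels. Per cell, the summed TPM of the list had a median of 153 in positive and 123 in negative cells. The ranges, 0.93 to 867 and 0.38 to 1126, overlapped. With CPM averaged over cells the list median was 0.69. A mean of CPM over cells, which weights cells equally, gave 0.69 for Esrp2, and moving the 7 cells with 1 or 2 Sox2 counts gave 0.46 for Krt19, both below the limit.

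Fibroblast and contractile transcripts lay toward the negative side. Of 30 fibroblast and mesenchyme genes, 25 were considered, 9 were called lower and 1, the fibrillin gene Fbn1, higher, with a median log2 ratio of -0.78. Of 16 contractile and TGF-beta response genes, 11 were considered, 6 were called lower and 0 higher, with a median of -1.04. Both shares of lower calls stand above the 8.21% of all genes considered.

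Tagln (transgelin), an actin-binding protein of smooth muscle and activated fibroblasts, had 5.92 CPM in positive cells (5.47 to 6.39) and 129 CPM in negative cells (127 to 132), a log2 ratio of -4.23. Its highest cell stood at 104 TPM among positive and at 1519 TPM among negative cells, and it was detected in 8 of 34 and 11 of 27 cells. Most of the summed difference therefore lay in a minority of negative cells. Tpm1, a tropomyosin found in every cell, differed more evenly. It ran from 15.1 through a median of 114 to 531 TPM in positive cells and from 19.9 through a median of 220 to 848 TPM in negative cells, with 172 against 431 CPM (log2 ratio -1.32). Cnn2, a calponin, had medians of 21.3 and 139 TPM and 142 against 343 CPM (-1.27), and was detected in 23 of 34 and 25 of 27 cells. Acta2, smooth muscle actin, was detected in 2 of 34 and 9 of 27 cells (2.34 against 12.7 CPM, -2.03), and Tpm2, another tropomyosin, in 6 and 11 (5.32 against 30.8 CPM, -2.33). The Acta2 ratio was -0.53 with the 7 cells of 1 or 2 Sox2 counts on the positive side. The ratios of Tagln, Tpm1 and Cnn2 stayed past the 2-fold limit under all 13 alternatives tried, some of which could not remove a call.

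Col1a2, a chain of type I collagen, had 22.7 CPM in positive and 284 CPM in negative cells (-3.59) and was detected in 14 of 34 and 18 of 27 cells. The highest negative cell held 49.8% of its side's counts, and without the highest cell of each side the ratio was -2.92. Col1a1, the partner chain, was detected in 7 of 34 and 15 of 27 cells, with 47.2 against 128 CPM (-1.42). Without the 2 positive cells that carried Sox10 and Cdh19, described further on, its ratio was -4.13, but it was -0.91 as a mean of CPM over cells, -0.75 as a mean of TPM and -0.89 with thinned counts, and the call held under 8 of 13 alternatives. Also lower were Prrx1, a homeobox factor of mesenchyme (-1.18), Col6a3, a type VI collagen chain (-1.37), and Thbs1, thrombospondin (-2.09). Vim (424 against 316 CPM, 0.42) and Fn1 (320 against 324 CPM, -0.02) were at like levels on both sides. In b1 cells of day 0, Tagln stood at 1083 CPM, Acta2 at 1125 CPM and Col1a1 at 1242 CPM, above both sides at day 3, whereas Col6a3 stood at 29.9 CPM, below both.

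**Figure D3:**
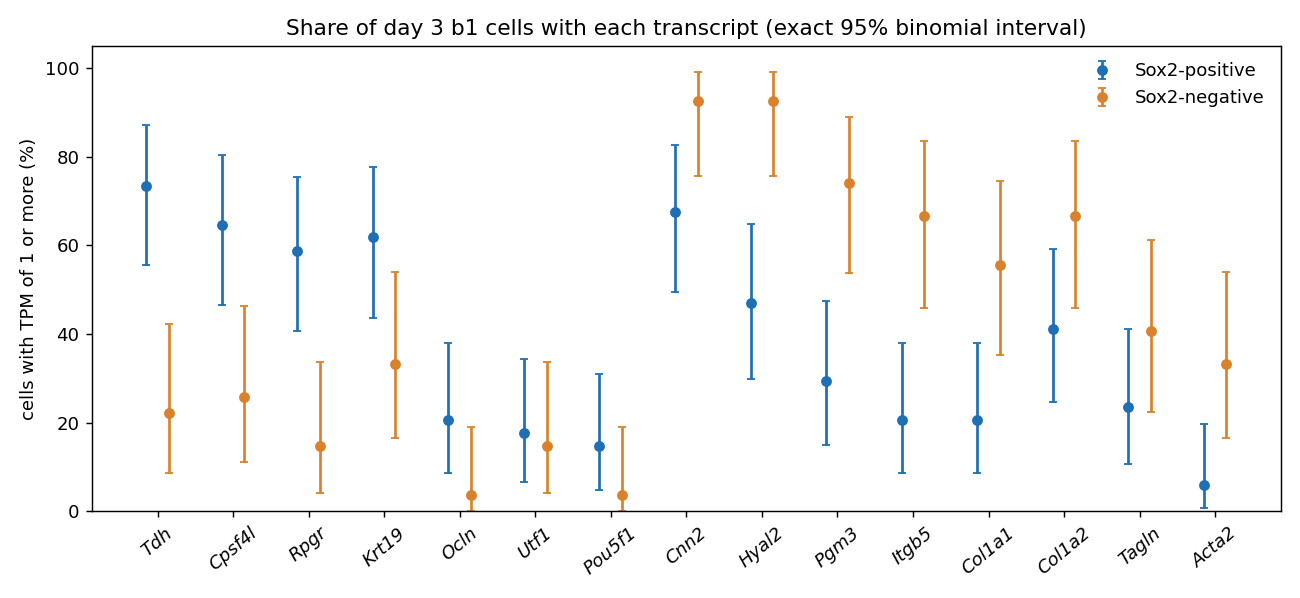
Share of Sox2-positive (blue, 34 cells) and Sox2-negative (orange, 27 cells) day 3 b1 cells with 1 TPM or more of each gene, in percent. Bars are exact 95% binomial intervals. Tdh stands at 73.5% and 22.2% and Hyal2 at 47.1% and 92.6%, while Utf1 stands at 17.6% and 14.8%. Several genes, Hyal2 among them, were chosen for their difference in share, and the intervals are no test between the sides.

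The promoters of 3 genes called lower are shown because contractile genes are classic targets of serum response factor, which binds the CArG box, and the lower calls include several of them. Each sequence runs 5' to 3' from 250 bases before the gene's start to 50 after it, from RefSeq on GRCm38.p6. It is in lower case, with a strict CArG box in capitals. The Cnn2 window is chr10:79988350-79988649 on the plus strand and that of Acta2 chr19:34255324-34255623 on the minus strand. The Lmcd1 window is chr6:112273508-112273807 on the plus strand. Lmcd1 encodes a LIM domain protein and had the lowest log2 ratio among the genes named by level.
Cnn2: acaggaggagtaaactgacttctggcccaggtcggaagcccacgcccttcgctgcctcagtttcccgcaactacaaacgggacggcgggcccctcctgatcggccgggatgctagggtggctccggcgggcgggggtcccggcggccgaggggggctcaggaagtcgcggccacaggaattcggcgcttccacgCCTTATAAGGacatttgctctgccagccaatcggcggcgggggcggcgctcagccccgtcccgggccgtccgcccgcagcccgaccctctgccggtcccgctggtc
Acta2: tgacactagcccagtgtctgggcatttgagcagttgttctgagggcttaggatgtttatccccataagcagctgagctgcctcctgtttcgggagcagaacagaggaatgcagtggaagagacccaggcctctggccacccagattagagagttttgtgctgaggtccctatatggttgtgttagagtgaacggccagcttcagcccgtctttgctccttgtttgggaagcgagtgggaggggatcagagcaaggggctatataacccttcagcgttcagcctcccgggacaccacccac
Lmcd1: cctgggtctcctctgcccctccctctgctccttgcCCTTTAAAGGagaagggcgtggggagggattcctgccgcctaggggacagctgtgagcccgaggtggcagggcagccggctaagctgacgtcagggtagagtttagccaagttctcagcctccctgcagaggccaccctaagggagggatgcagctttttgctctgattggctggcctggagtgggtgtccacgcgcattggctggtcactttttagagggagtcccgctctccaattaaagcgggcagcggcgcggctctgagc
The box, searched on both strands in its strict form, starts 56 bases before the start in Cnn2 and 215 bases before it in Lmcd1. The Acta2 window holds no strict match, but it holds ccctatatgg and ccttgtttgg, each a single base off the strict form. The strict search therefore does not show that Acta2 lacks a CArG box. A strict CArG box was present in 15 of 643 lower genes with a promoter in the table (2.33%), in 10 of 807 higher genes (1.24%) and in 128 of 8132 genes considered (1.57%). Of all 32851 promoters in the table, 1.63% held one. The Sox core motif CATTGTT, searched on both strands, was present in 2.85% of higher, 2.8% of lower and 2.24% of considered genes with a promoter, and in 3.78% of all promoters. None of the 3 windows shown holds it. Tagln, Tdh and Krt19 have no entry.

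**Figure D4:**
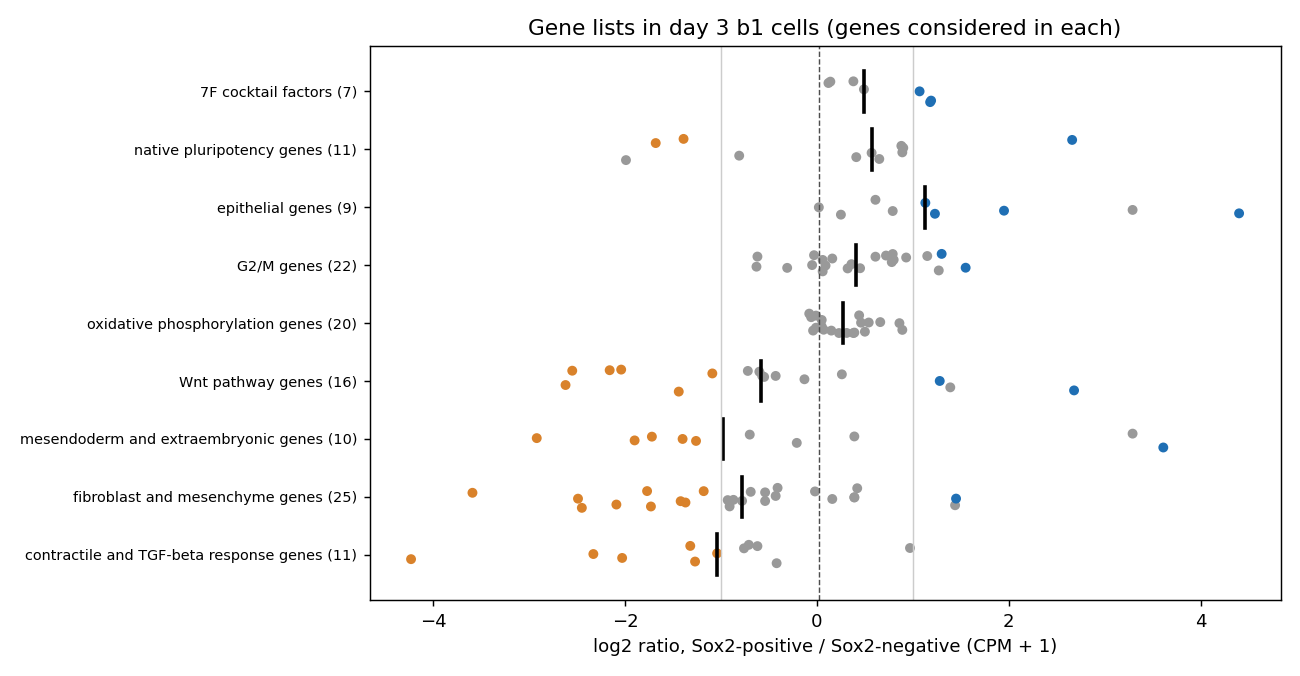
Log2 ratio between Sox2-positive and Sox2-negative day 3 b1 cells (horizontal axis) for the genes considered of 9 gene lists (vertical axis, number of genes in parentheses). Blue points are genes called higher, orange points genes called lower and grey points the others, which include genes past the limit through 1 cell. Black bars are list medians, from 1.13 for epithelial genes to -1.04 for contractile genes, and the dashed line is the median of all genes considered, 0.02.

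The counts of calls in the next lists stand beside 8.21% lower and 10.0% higher over all genes considered. Of 16 Wnt pathway genes considered, 6 were called lower and 2 higher (median -0.59). The lower ones included the secreted Wnt antagonists Sfrp1 (9.75 against 47 CPM, -2.16) and Sfrp2 (-2.62), the receptors Fzd1 (-2.55) and Fzd2 (-1.09), and the transcription factor Lef1 (18 against 50.4 CPM, -1.44). With the 7 cells of 1 or 2 Sox2 counts on the positive side Sfrp1 stood at -0.11. With thinned counts Lef1 and Fzd2 both stood at -0.42, and the Fzd2 call held under 7 of 13 alternatives. Nkd2, an inhibitor of Dishevelled, was higher at 193 against 29.4 CPM (2.68) and was detected in 12 of 34 and 11 of 27 cells. Of 10 mesendoderm and extraembryonic genes considered, 5 were lower and 1, Foxa2, higher (median -0.98). Mixl1, a homeobox factor of the primitive streak, had 173 against 1315 CPM (-2.92). It reached 656 TPM in the highest positive and 10735 TPM in the highest negative cell, and that negative cell held 60.3% of the counts of its side. Detection was alike, at 15 of 34 and 14 of 27 cells, and with the 7 cells of 1 or 2 Sox2 counts on the positive side the ratio was 0.08. Lama1, a laminin chain of basement membranes, had 12.1 against 33.4 CPM (-1.40). Of 12 BMP response genes, 2 were lower, the target gene Id1 (71.9 against 154 CPM, -1.09) and the BMP antagonist Grem1 (-3.34). The other 2 called were higher, the ligands Bmp7 (1.31) and Bmp2 (1.04). The calls of Id1 and Bmp2 each held under 7 of 13 alternatives.

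Few cell cycle genes were called on summed counts, where 10.0% of all genes considered were higher and 8.21% lower. Of 22 G2/M genes, 2 were higher and 0 lower, namely the cyclin Ccna2 (90.5 against 30.2 CPM, 1.55) and the kinase Aurkb (1.30). The proliferation marker Mki67 stood at 104 against 129 CPM (-0.31) and was detected in 14 of 34 and 16 of 27 cells. Of 20 G1/S genes, 1 was higher, the replication helicase subunit Mcm3 (1.33), and 1 lower, the cyclin Ccne2 (-2.49). Aurkb stood at 0.52 and Mcm3 at 0.96 with thinned counts, and Ccne2 at -0.29 with the 7 cells of 1 or 2 Sox2 counts on the positive side. Medians per cell went another way than the sums for several genes. Per cell, the summed TPM of the G2/M list had a median of 577 in positive and 1321 in negative cells, with ranges of 5.09 to 6849 and 28.3 to 6783 that overlapped. Ube2c, a ubiquitin-conjugating enzyme of mitosis, had 232 against 222 CPM but medians of 38.4 TPM in positive and 192 TPM in negative cells. Rrm2, a ribonucleotide reductase subunit, had medians of 66.9 and 321 TPM. None of the 20 oxidative phosphorylation genes was called. Cdkn1c (p57), an imprinted inhibitor of cyclin-dependent kinases, was among the most abundant genes called. It had 3186 against 1528 CPM (1.06), with medians of 1054 and 276 TPM. Cdkn1a (p21) had 508 against 531 CPM (-0.06).

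Among the largest single ratios on the positive side, 2 cells carried much of the signal. The genes of highest ratio with 20 CPM or more in the pooled cells were Cdh19, Gldn, Kit, Apod, Upp2, Il1rap, Gfra1, Efemp1, Zfp758, Gpm6b, Nefl and Maml2, with log2 ratios from 5.59 to 3.66. In 2 Sox2-positive cells, Sox10, Cdh19 and Erbb3, genes of the neural crest and Schwann lineage, stood together. Their levels were 61.8 and 123 TPM for Sox10, 578 and 268 TPM for Cdh19 and 42.2 and 213 TPM for Erbb3. Apod, a secreted lipocalin, reached 3789 and 3859 TPM in them. The first of these cells was also the cell with the most Sox2, at 153 TPM, and the second had 16.5 TPM. Sall4 stood at 4.67 and 7.17 TPM in them, against a median of 181 TPM in positive cells. Map2k6 stood at 402 TPM in the first and 1.06 TPM in the second. This set of genes was chosen after the values were seen. No negative cell had 10 TPM or more of at least 3 of Sox10, Cdh19, Erbb3 and Foxd3, and 0 of the 400 cells of the other sets did. Without the 2 cells the log2 ratio of Gpm6b, a membrane glycoprotein, was -0.94 in place of 3.80, and the median of the 9 interferon response genes considered was -0.84 in place of 1.15. Over all genes, 1063 were then called higher and 933 lower, of which 961 and 815 were also called with all cells.

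Kit, the receptor of stem cell factor, did not rest on them. It had 68.9 CPM in positive cells (67.3 to 70.5) and 1.76 CPM in negative cells (1.48 to 2.08), a log2 ratio of 4.66, and was detected in 9 of 34 and 5 of 27 cells. Without the 2 cells the ratio was 4.74. Even so, 1 cell held 56.3% of the positive counts of Kit, and 3 positive cells stood at 100 TPM or more. Without the highest cell of each side its ratio was 3.67. Zfp758, a zinc finger gene, was detected in 13 of 34 and 5 of 27 cells (41.2 against 1.89 CPM, 3.87). Most of the other genes with large ratios were carried by few cells. For Il1rap, the accessory chain of the interleukin-1 receptor, 88.9% of the positive counts came from 1 cell, and for Gfra1, a GDNF receptor, 88.8%. Without the 2 cells with Sox10, Cdh19 and Erbb3, Il1rap stood at 1.04 and Gfra1 at 1.00, so both rested on those cells. Upp2, Efemp1 and Nefl did not, at 4.17, 4.10 and 3.84.

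The lowest ratios at the same level belonged to Lmcd1, Rgs4, Penk, Tagln, Zfp975, Kctd14, Pcdh18, Tril, Mir99ahg, Sept4, Dusp14 and Pygo1, from -5.69 to -3.73. Lmcd1 was detected in 1 of 34 positive and 6 of 27 negative cells (0.23 against 62.4 CPM). Penk, the enkephalin precursor, was detected in 5 and 8 cells, with a highest cell of 175 TPM in positive and 1978 TPM in negative cells (1.7 against 119 CPM, -5.48). Pcdh18, a protocadherin, was detected in 5 and 10 cells (-3.91). Like the highest ratios, these came from a minority of the cells of 1 side.

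Differences in the share of cells pointed to other genes. Beside Tdh, the largest excess of positive cells belonged to Bnc1, Gdap1l1, Rpgr, Pcdh8, Cpsf4l, Itpr2 and Gprc5c. Cpsf4l, a gene named for its likeness to a polyadenylation factor, was detected in 22 of 34 and 7 of 27 cells and had 157 against 39.8 CPM (1.96). Rpgr, a ciliary protein, was detected in 20 and 4 cells and had 34 against 2 CPM (3.55). Bnc1, a zinc finger factor of epithelia, was detected in 19 and 2 cells, with 36.7 against 22.1 CPM (0.70), 96.8% of the negative counts being in 1 cell. The largest excess of negative cells belonged to Itgb5, Hyal2, Pgm3, Pdpn, Klc4, Bhlhb9, Synpo and Trim16. Hyal2, a hyaluronidase, was detected in 16 of 34 and 25 of 27 cells (28.8 against 76.6 CPM, -1.38). Pdpn (podoplanin), a mucin-like membrane protein, was detected in 14 and 23 cells (61.7 against 128 CPM, -1.04). Itgb5, an integrin chain, was detected in 7 and 18 cells, yet its sums were 29.3 and 36.4 CPM, because 1 positive cell at 1987 TPM held 81.4% of the counts of its side. Its log2 ratio of sums was -0.30 and that of mean TPM 1.80, so no direction is read from it. With cells thinned to 300000 counts, Hyal2 had a count in 17 of 34 and 24 of 27 cells and Cpsf4l in 21 and 5. Gprc5c, an orphan receptor detected in 27 and 11 cells, had one in 25 and 16, a smaller gap.

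The same division was tested in the 3 sets that have at least 5 cells on each side and that played no part in the choice of cells. These were b3 at day 4 (52 positive and 7 negative cells), b2 at day 5 (64 and 15) and b2 at day 7 (50 and 15). With the set as a block, the edgeR quasi-likelihood test called 0 of 15604 genes higher and 0 lower at an adjusted p under 0.05, that is 0% in each direction. At an unadjusted p under 0.05 there were 1323 genes. DESeq2 on the same sums called 759 higher and 349 lower. The edgeR fit had 2 residual degrees of freedom and a biological coefficient of variation of 0.825, and the sets differ in day and, for day 4, in prefix.

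Of the 6 contractile genes called lower in b1 at day 3, 5 lay below 0 in each of these sets and Tgfb1i1 (-3.50, -1.47 and 2.41) did not. Among all lower genes tested there, 17.6% lay below 0 in each set. Tpm1 had log2 ratios of -2.55, -2.59 and -2.66 at days 4, 5 and 7, beside -1.32 in b1 at day 3. Its edgeR log2 fold change was -2.65 (SE 0.18, adjusted p = 0.144). With cells thinned to 300000 counts it was the single gene called, at -2.55 and an adjusted p of 0.0341. Tagln had ratios of -4.84, -2.67 and -4.04 (edgeR -4.03, SE 0.56, adjusted p = 0.33). Cnn2 had -2.71, -1.43 and -2.25 (edgeR -2.18, SE 0.32, adjusted p = 0.33), and Col1a2 had -3.09, -1.65 and -1.98 (edgeR -2.39, SE 0.39, adjusted p = 0.368). Acta2 and Tpm2 were likewise below 0 in all 3 sets. None of these passed the edgeR threshold. DESeq2 gave adjusted p-values of 1.23e-14 for Tpm1, 6.03e-10 for Tagln, 4.18e-05 for Cnn2 and 2.92e-05 for Col1a2. On the positive side, Utf1 had ratios of 3.64, 2.97 and 4.38, Kit 4.13, 5.46 and 6.75, Sall4 1.93, 0.81 and 1.78, and Tdh 1.76, 3.43 and 9.54, again without passing it. DESeq2 gave adjusted p-values of 1.91e-09 for Utf1, 9.4e-15 for Kit, 0.0133 for Sall4 and 0.0479 for Tdh. The other 2 factors called higher in b1 turned at day 7, with ratios of 2.39, 1.90 and -1.66 for Map2k6 and of 1.10, 0.11 and -0.70 for Glis1. Efemp1 and Gprc5c, also called higher in b1, lay below 0 in all 3 sets. Their ratios were -0.31, -2.79 and -4.17 for Efemp1 and -0.43, -1.71 and -2.33 for Gprc5c. The edgeR adjusted p-values were 0.581 and 0.55, and those of DESeq2 0.0075 and 0.0381. The epithelial genes did not keep 1 side. Krt19 had ratios of 1.58, -1.02 and -3.90.

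Of the 1082 genes higher in b1 at day 3, 1050 were tested in the other sets, and 674 of them (64.2%) had an edgeR log2 fold change above 0, against 57.1% of all genes considered. Of the 866 lower genes tested, 454 (52.4%) lay above 0. Genes are not independent, and these shares are descriptions. All 3 sets lay above 0 for 24.7% of the higher and 15.9% of the lower genes, beside 21.1% of all genes considered. All 3 lay below 0 for 7.71% and 17.6%, beside 12.1%. The b2 cells of day 3 had 4 negative cells, too few for the fit. There the ratio was -5.95 for Tagln, -2.33 for Tpm1 and 7.14 for Tdh. Other genes lay on the opposite side from b1 at day 3. Map2k6 stood at -0.34, Col6a3 at 0.72, Lmcd1 at 4.02, Penk at 2.48 and Nr0b1 at 3.73.

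**Figure D5:**
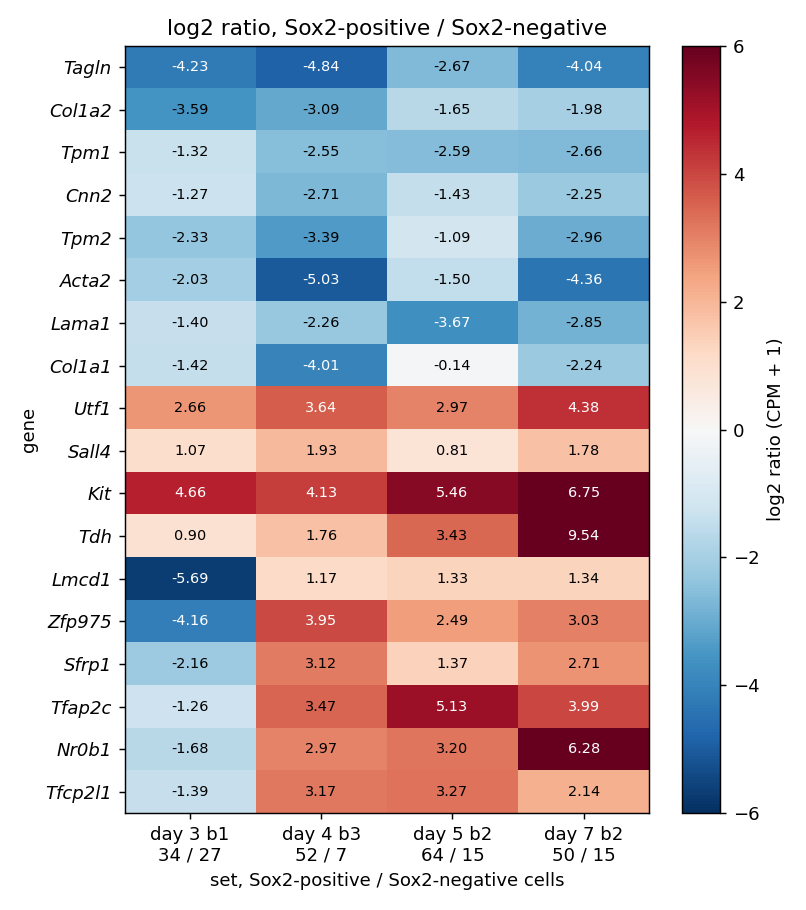
Log2 ratio of CPM + 1 between Sox2-positive and Sox2-negative cells for 18 named genes (rows) in b1 at day 3 and in the 3 other sets (columns, with the numbers of positive and negative cells). Red is higher and blue lower in positive cells, and each cell of the plot prints its value. Tagln, Col1a2 and Tpm1 are below 0 in every column, Utf1 and Kit above 0 in every column, and the last 6 genes are below 0 in the first column only.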

How the data were processed

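Each of the 461 samples is 1 cell. Expected counts and TPM were deposited by the authors and come from RSEM 1.2.22, which the submitters' processing notes name. The sources used here give no aligner, genome build or annotation. Of the expected count values, 9.108% were not whole, and sums were rounded. The count table holds 31673 genes, of which 31426 had a symbol. The TPM table matched 31142 genes by name, 475 of them through a synonym. No 2 cell columns were identical, no cell was removed and no doublet caller was run.

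The members and gene lists were chosen with earlier results of these data known. Sides were compared by CPM of summed counts with a pseudocount of 1 CPM, and other sets by edgeR 4.0.16 (filterByExpr, TMM, quasi-likelihood test with Benjamini-Hochberg adjustment, R 4.3.3), with DESeq2 1.42.0 as an alternative. The code was run on simulated counts that varied less between cells and sets than these data, so that run gives no error rate for them. Shares have exact Clopper-Pearson intervals and sums of counts exact Poisson intervals, at 95%. Reads carry no molecular identifiers, so these cover counting error only. Python 3.11.15, pandas 2.3.3, numpy 2.4.6, scipy 1.17.1 and matplotlib 3.10.9 were used.

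Named genes are the 12 highest and 12 lowest ratios among called genes with at least 20 CPM, the 8 largest differences in detection each way, up to 5 called and 3 other members of each list, and a fixed set of factors and markers. Predicted genes, pseudogenes, ribosomal protein and histone genes are left out of the first parts, and some genes are not reported here. Genes named from the neural crest and Schwann lineage list, and Vim, Fn1, Klf4, Tbx3, Sfrp2 and Fbn1, were added after their values were seen.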

Additional observations from a re-analysis of the deposited data

Results flagged for a closer look

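For 6 named genes called lower in Sox2-positive cells of b1 at day 3, the ratio was past 2-fold in the opposite direction in each of the 3 other sets (b3 at day 4, b2 at day 5 and b2 at day 7). Of all 866 lower genes tested in those sets, 15.9% lay above 0 in all 3, beside 21.1% of all genes considered. Lying above 0 is a weaker condition than being past 2-fold. The share past 2-fold in all 3 sets is not given here, so the 6 genes have no like background. The difference between the sets was not tested. Nr0b1 had a log2 ratio of -1.68 in b1 at day 3 and of 2.97, 3.20 and 6.28 in the other sets. Tfcp2l1 had -1.39 and then 3.17, 3.27 and 2.14. Both are genes of pluripotent cells, and in b1 at day 3 they were detected in 9 and 7 of 34 positive and in 6 and 7 of 27 negative cells. Zfp975, a zinc finger gene, had -4.16 and then 3.95, 2.49 and 3.03. Tfap2c, a transcription factor of trophoblast and germ cells, had -1.26 and then 3.47, 5.13 and 3.99. Sfrp1, a secreted Wnt antagonist, had -2.16 and then 3.12, 1.37 and 2.71. Lmcd1 had -5.69 and then 1.17, 1.33 and 1.34, but at levels of 1.24, 1.99 and 1.53 CPM at most in the other sets.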

How the results depend on the processing

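In b1 at day 3, the counts of higher and lower genes stayed within 1.5 times those reported (1082 and 885) under all alternatives except the following. A pooled minimum of 20 CPM, which leaves fewer genes, gave 507 higher and 401 lower, and positive cells at or above the median Sox2 level, which are 17 cells, gave 1434 lower. The remaining counts ran from 967 to 1442 higher and from 623 to 1255 lower. The direction turned for Gpm6b, at -0.94 without the 2 cells with Sox10, Cdh19 and Erbb3, and for Maml2, at -1.28 with positive cells at or above the median Sox2 level. With Sox2 counts above 0 set against 0, it turned for Rgs4 (2.62), Sept4 (0.65) and Mixl1 (0.08). Itgb5, not called at -0.30, stood at 1.05 with a mean of CPM over cells, 1.80 with mean TPM and 0.99 with thinned counts. The cause was not tested. The 2 alternatives that leave out cells by lineage genes or by low factor transcripts were chosen after seeing the data, and the second left out 1 positive and 3 negative cells. An alternative without low-quality cells gave no value, since 0 cells of the set met its criterion. In the other sets, edgeR called 0 higher and 0 lower genes, and DESeq2 759 and 349. Thinning to 300000 counts gave 0 higher and 1 lower (Tpm1). Without the replicate block (the set), edgeR called 0 higher and 0 lower genes, as it did with no filter, with Sox2 counts above 0 and without each set in turn (0 to 0).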

Other observations

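In b1 at day 5, 3 of 5 cells were Sox2-positive, and in b1 at day 7 both of 2 cells were, too few for a comparison of sides. In the b2 cells of day 1, 55 of 58 cells were already Sox2-positive (94.8%, exact 95% interval 85.6 to 98.9), with a median of 8.665 TPM, while Tdh stood at 64.6 CPM there and at 0 CPM in b2 at day 0.

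Of 14 amino acid stress response genes considered in b1 at day 3, 3 were higher and 0 lower, beside 10.0% of all genes considered that were higher, among them the mitochondrial one-carbon enzymes Mthfd2 (127 against 49.5 CPM, log2 ratio 1.34) and Shmt2 (103 against 49.7 CPM, 1.04). Of 20 cholesterol synthesis genes, 0 were higher and 2 lower, beside 8.21% of all genes considered that were lower, namely Hsd17b7 (42.4 against 117 CPM, -1.44) and Dhcr7 (4.18 against 20.1 CPM, -2.03), and 4 of the 20 had a ratio above 0. Averaging CPM over cells gave 0.64 for Shmt2 and averaging TPM gave 0.83 for Mthfd2, both below the 2-fold limit.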
